A study of Mus musculus with 63 samples.

Results

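miR-378a is a microRNA made from a hairpin within a gene for a metabolic coactivator, and both of its mature arms, mmu-miR-378a-3p and mmu-miR-378a-5p, were followed in 4 sorted cell types of the obstructed mouse kidney. The arms were chosen by name, with earlier results of this count table known, and are 2 of the 2110 mature miRNA loci in the table. Their levels across cell types are therefore given as a description. The adjusted p-values below say where each arm stood among all loci tested and are not independent support for the choice.

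The small RNA sequencing covered male C57BL/6 mice aged 8 to 12 weeks. One group was sham operated, one had unilateral ureteric obstruction (UUO) for 2 days (UUO-2), one had it for 7 days (UUO-7), and one had its ureter reimplanted after 7 days of obstruction and was studied 2 weeks after that reversal (R-UUO). Endothelial cells (ECs, sorted on CD31), macrophages (Macs, sorted on F4/80), proximal tubular cells (PT cells, sorted on binding of the lectin LTL) and stromal PDGFR-β+ cells were taken from the same 16 mice, 4 per condition. Each of the 16 groups held 4 libraries except UUO-7 PDGFR-β+ cells with 3, from which the authors had removed 1 library as an outlier. Each library measures the RNA of a sorted population, so a change per cell and a change in the mix of cells within a gate cannot be told apart.

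MicroRNAs are short RNAs that guide Argonaute proteins to partly matching messenger RNAs, which are then silenced. Bases 2 to 8, the seed, set most of the choice of target. A hairpin yields a 5p and a 3p arm, usually in very unequal amounts, and each arm has its own seed and targets. Ppargc1b, the host gene of miR-378a, encodes PGC-1β, a coactivator of genes for mitochondrial respiration and fatty acid oxidation. In other tissues miR-378a-3p is known to repress Crat, an enzyme that handles acetyl groups from fatty acids, and miR-378a-5p to repress Med13, a subunit of the Mediator complex. PT cells depend on fatty acid oxidation for their transport work.

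The 3p arm was counted at GRCm38 chr18:61397838-61397858 and the 5p arm at chr18:61397875-61397896, which are 21 and 22 bases. Both lie on the minus strand in the Mir378a hairpin (chr18:61397835-61397900), in intron 1 of Ppargc1b (chr18:61298136-61400431, same strand). All 3 annotated Ppargc1b transcripts contain both arms in intron 1, and 0 of the 3 has an exon over either arm. A second miRNA gene model, Gm25301 (chr18:61397813-61397925), covers the hairpin on the plus strand. Whether reads were counted by strand is not given in the sources used here, so reads from the 2 strands cannot be told apart.

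Total counts ran from 616565 to 10819385 per library. Both arms passed the filter on low counts in all 4 cell types. Levels are in CPM, counts scaled to a common library size, and 3 counts correspond to 0.277 to 4.87 CPM across these libraries. Markers of each sorted type were highest in that type in every library. The EC markers miR-126a-3p and miR-126a-5p summed to 43892 to 109942 CPM in ECs and to at most 4835 CPM in the others. The Mac markers (miR-142a-3p, miR-142a-5p and miR-223-3p) summed to 23782 to 63975 CPM in Macs and to at most 761 CPM elsewhere. The PT markers (miR-192-5p, miR-194-5p and miR-215-5p) summed to 8325 to 180194 CPM in PT cells and to at most 7448 CPM elsewhere. The lowest PT value, 8325 CPM, came from the library of R-UUO mouse 1, in which miR-10a-5p and miR-10b-5p made up 71.5% of the counts against 17.5% to 47.1% in the other PT libraries. The PDGFR-β+ markers (miR-199a-5p, miR-214-3p and miR-145a-5p) summed to 1129 to 4794 CPM in PDGFR-β+ cells and to at most 464 CPM elsewhere. The authors reported that in late injury these cells lost miR-145 and gained miR-199 and miR-214. A change in this sum, in any cell type, therefore need not hold for each member. These marker sums are CPM by library size, and so are those below.

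miR-378a-3p was among the abundant miRNAs of every population, and its level was highest in PT cells. It ranked 12th to 20th of all loci in the PT libraries, 22nd to 43rd in PDGFR-β+ cells, 27th to 42nd in Macs and 47th to 64th in ECs. It made up 0.407% to 1.88% of the counts of a PT library and 0.055% to 0.161% of an EC library. To set the cell types on one scale, CPM were also computed with the trimmed mean of M values (TMM) over all 63 libraries. On that scale sham PT cells held 12277, 10886, 12915 and 12148 CPM, and sham PDGFR-β+ cells 5781, 4938, 5618 and 5382 CPM. Sham ECs held 1808, 1993, 2496 and 2267 CPM, and sham Macs 2059, 2095, 2312 and 2284 CPM. PT cells stood above PDGFR-β+ cells, which stood above the other two, with no overlap, while ECs and Macs overlapped.

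**Figure D1:**
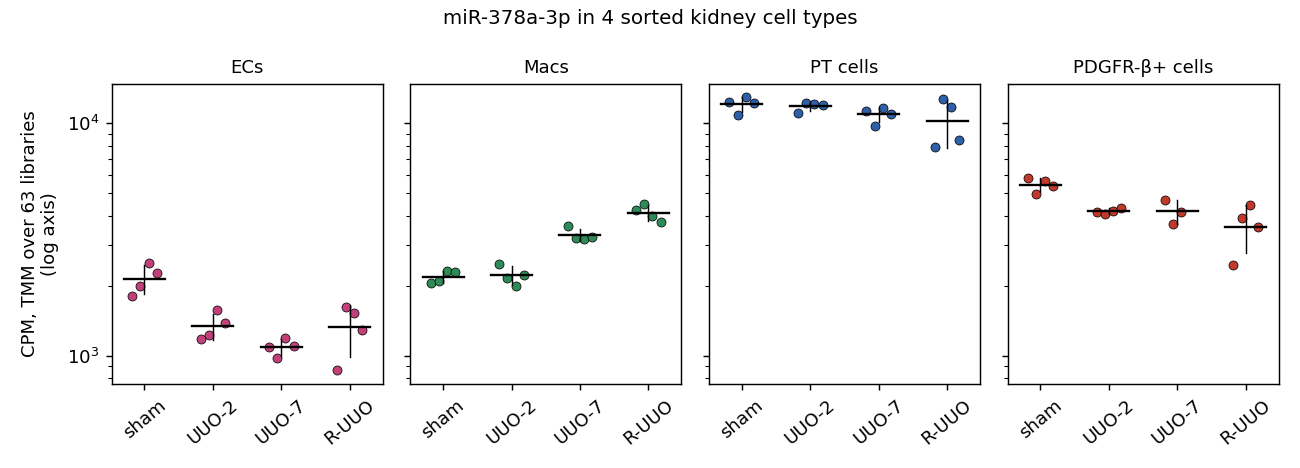
miR-378a-3p by library in each sorted cell type. The log axis is CPM scaled by TMM over 63 libraries, points are libraries, horizontal lines are group means and vertical lines are SD (n = 4, or 3 for UUO-7 PDGFR-β+ cells). PT cells lie highest in every condition, Macs climb from sham to UUO-7 and R-UUO, and ECs fall.

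In sham PT cells the level was 2.04 ± 0.108 (SE) higher on the log2 scale than the mean of the other 3 cell types, a 4.10-fold difference. It was 0.50 ± 0.115 higher in PDGFR-β+ cells, and the log2 difference was -1.29 ± 0.128 in ECs and -1.25 ± 0.127 in Macs. The PDGFR-β+ difference turned to -0.19 when libraries were scaled by size alone. Within mice, 3p was higher in PT cells than in ECs in 16 of 16 mice and than in PDGFR-β+ cells in 15 of 15, under each of 3 scalings. It was higher in PT cells than in Macs in 16 of 16 mice with TMM and in 15 of 16 by library size. The order of Macs and PDGFR-β+ cells was not settled, with Macs lower in 12 of 15 mice with TMM and in 4 of 15 by library size.

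In Macs, both arms of miR-378a rose after 7 days of obstruction and were still higher 2 weeks after reversal. From here on, CPM are scaled by TMM within the cell type, and a locus is called when its adjusted p (edgeR's quasi-likelihood test, Benjamini-Hochberg over all loci tested in that cell type) is under 0.05 and its fold change above 1.5. For 3p, sham Macs held 3210, 3280, 3764 and 3353 CPM. UUO-2 Macs held 4196, 3871, 3455 and 4165 CPM, which overlapped with sham. UUO-7 Macs held 6307, 5594, 5905 and 4965 CPM, and R-UUO Macs 6976, 7150, 6154 and 6365 CPM. Every UUO-7 and R-UUO library lay above every sham library. The share of all loci that separated in this way was not computed, here or in the other cell types, so such separations are a description.

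The 3p arm rose by 0.74 ± 0.106 (log2 fold change ± SE) at UUO-7 against sham, with an edgeR adjusted p of 2.18e-05, where 43.1% of 457 loci were called. It was 0.97 ± 0.107 higher in R-UUO than in sham (edgeR adjusted p = 1.76e-06), where 31.9% of loci were called. The median change of all loci was 0.22 at UUO-7 and 0.12 in R-UUO, which left 3p 0.53 and 0.85 above it. At UUO-2 the change was 0.21 ± 0.106 (edgeR adjusted p = 0.148, 27.6% of loci called), and between UUO-7 and R-UUO it was 0.23 ± 0.106 (edgeR adjusted p = 0.125, 19.9% called). With any 1 library left out and the loci filtered again, the UUO-7 change was 0.51 to 0.67, and in 5 of 8 such fits the fold no longer passed 1.5, although the edgeR adjusted p stayed at or below 0.00187. Those 5 fits left out sham library 1 or 2 or UUO-7 library 2, 3 or 4. All 8 refiltered fits lay below the 0.74 of the full fit, whichever library was left out. Refiltered fits also lay below the full fit for R-UUO (0.78 to 0.87, called in 8 of 8) and UUO-2 (0.0014 to 0.11) against sham. With the loci of the full fit kept, the UUO-7 change was 0.69 to 0.80 and called in 8 of 8.

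The 5p arm moved the same way at a far lower level. Sham Macs held 34, 9, 9 and 35 counts of it, which is 5.75, 4.21, 3.29 and 9.07 CPM. UUO-7 Macs held 13.7, 12.9, 13.8 and 9.93 CPM from 25, 45, 28 and 27 counts, all above sham. R-UUO Macs held 16.9, 16.6, 15.1 and 19.0 CPM from 47, 101, 35 and 20 counts, all above UUO-7. The change against sham was 1.13 ± 0.285 at UUO-7 (edgeR adjusted p = 0.00326) and 1.55 ± 0.283 in R-UUO (edgeR adjusted p = 0.000338). It was 0.70 ± 0.281 at UUO-2 (edgeR adjusted p = 0.0653) and 0.42 ± 0.274 between UUO-7 and R-UUO (edgeR adjusted p = 0.262), so neither of these was called. Without sham library 4, the highest of its group, the UUO-2 change was 0.89 and called (edgeR adjusted p = 0.0239). Without the filter on low counts the UUO-7 change was 1.01 and not called (edgeR adjusted p = 0.0632).

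Markers of other cells also moved in the Mac libraries. PT markers summed to 5398 to 7448 CPM in sham Macs, 2278 to 3835 at UUO-7 and 1558 to 3699 in R-UUO, which is opposite to miR-378a-3p. Of the 3 PT markers, 0 was absent from all Mac libraries. PT markers also fell within PT cells, from a median of 173899 CPM in sham to 42903 at UUO-7 and 57698 in R-UUO. As a share of the PT medians of the same condition, those in Macs were 3.18% in sham and 6.56% at UUO-2. That share was 6.52% at UUO-7 and 3.35% in R-UUO. In the same order of conditions, the miR-378a-3p medians in Macs stood at 19.6%, 30.8%, 53.4% and 50.0% of its PT medians, by library size. These shares depend on the scaling. With TMM over 63 libraries, sham Macs held 2059 to 2312 CPM of it and sham PT cells 10886 to 12915 CPM. At UUO-7 the same scale gave 3171 to 3602 CPM in Macs and 9718 to 11632 CPM in PT cells. The PDGFR-β+ markers ran the same way as miR-378a-3p in Macs, at 39.3 to 66.9 CPM in sham, 63.5 to 116 for UUO-2, 167 to 212 for UUO-7 and 308 to 464 for R-UUO, against 1129 to 4794 CPM in PDGFR-β+ cells. miR-150-5p, listed as a lymphocyte miRNA, was at 147 to 249 CPM in sham, 837 to 1346 at UUO-7 and 205 to 995 in R-UUO. Over all conditions its median was 2005 CPM in ECs against 541 CPM in Macs, so it does not mark lymphocytes alone here. Red blood cell markers (miR-451a, miR-144-3p and miR-486a-5p) summed to 420 to 799 CPM in sham, 862 to 1088 at UUO-7 and 436 to 918 in R-UUO. The Mac markers themselves summed to 52537 to 63975 CPM in sham, 31936 to 36821 at UUO-7 and 23782 to 38821 in R-UUO. The part of these shifts in the miR-378a result was not tested.

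**Figure D2:**
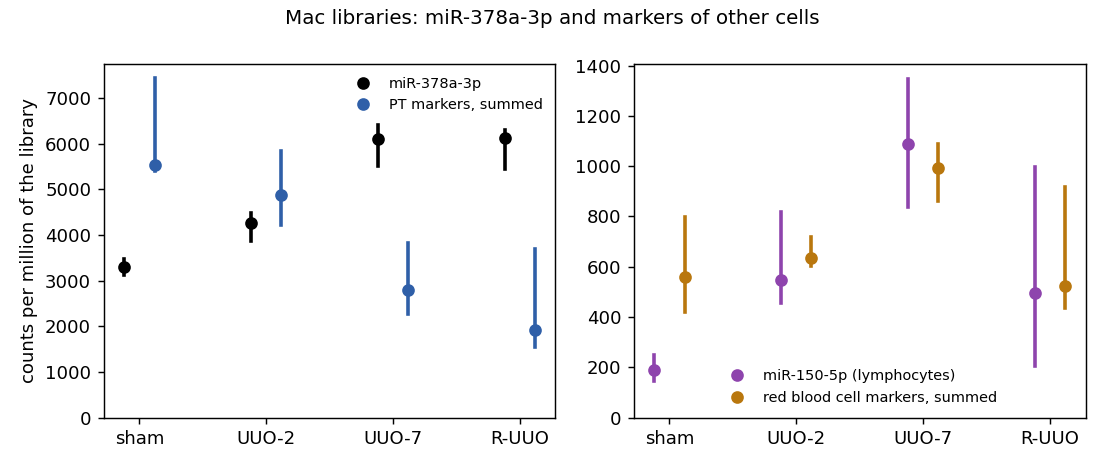
Mac libraries by condition, in CPM by library size. Points are medians and bars run from the lowest to the highest library (n = 4). In the left panel miR-378a-3p rises while summed PT markers fall. In the right panel miR-150-5p (listed for lymphocytes, but higher in ECs) and the summed red blood cell markers peak at UUO-7.

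In ECs, miR-378a-3p fell by UUO-7, the reverse of its course in Macs. Sham ECs held 1087, 1288, 1550 and 1410 CPM. UUO-2 ECs held 879, 895, 1005 and 912 CPM, and UUO-7 ECs 763, 683, 767 and 693 CPM. All 8 obstructed libraries lay below all 4 sham libraries, given as a description without the share of all loci that did so. R-UUO ECs held 617, 970, 1064 and 871 CPM, below sham and overlapping with UUO-7.

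The log2 change at UUO-7 against sham was -0.88 ± 0.147 (edgeR adjusted p = 0.000594), a 1.84-fold decrease, where 11.5% of 469 loci were called. It was called with each library left out in turn. At UUO-2 the change was -0.53 ± 0.146 and not called (edgeR adjusted p = 0.0988, 1.71% of loci called). Without sham library 1 and with the loci of the full fit kept, it was -0.64 and called (edgeR adjusted p = 0.0482). R-UUO against UUO-7 gave 0.28 ± 0.146 (edgeR adjusted p = 0.247, 1.07% called). R-UUO against sham gave -0.60 ± 0.146 (edgeR adjusted p = 0.00779, 16.8% called), at 1.51-fold just past the fold threshold. That last call was lost in 7 of 8 fits with 1 library left out, all except the one without R-UUO library 4, and the changes in the 8 fits were -0.63 to -0.36. With the loci of the full fit kept it was called in 5 of 8, and lost without R-UUO library 1 or sham library 3 or 4. Without R-UUO mouse 1, the lowest library, it was -0.36 (edgeR adjusted p = 0.0724).

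The 5p arm was near the limit of counting in ECs, at 2 to 45 counts per library. It held 1.35, 2.13, 4.08 and 2.96 CPM in sham and 0.573, 1.56, 1.06 and 1.07 CPM at UUO-7, and the 2 groups overlapped. The log2 change was -1.30 ± 0.480 at UUO-7 (edgeR adjusted p = 0.0752). The other 3 EC comparisons of 5p had edgeR adjusted p of 0.294 to 0.915, and so 0 of 4 were called. Markers of other cells moved in the EC libraries too. PT markers, from the cell type with the most miR-378a-3p, summed to 1795 to 2543 CPM in sham ECs, 1152 to 1790 CPM at UUO-7 and 876 to 1268 CPM in R-UUO, the same direction as 3p and with no overlap with sham. Their medians were 1.23% of those in PT cells in sham and 3.00% at UUO-7. By library size, the 3p medians in ECs stood at 9.04% and 6.36% of its PT medians, shares that depend on the scaling. With TMM over 63 libraries, 3p was at 1808 to 2496 CPM in sham ECs and 10886 to 12915 CPM in sham PT cells. At UUO-7 that scale gave 974 to 1186 CPM in ECs and 9718 to 11632 CPM in PT cells. miR-150-5p was at 2023 to 2491 CPM in sham ECs and 1157 to 2020 CPM at UUO-7. Its median was highest in ECs of the 4 sorted types, so it cannot be read as a marker of other cells in ECs. The Mac markers were at 13.7 to 42.9 CPM in sham ECs and 69.6 to 124 CPM at UUO-7. Muscle miRNAs, here miR-1a-3p, miR-133a-3p and miR-206-3p, summed to 92.8 to 162 CPM in sham ECs and 24.6 to 52.1 CPM at UUO-7. PDGFR-β+ markers summed to 101 to 118 CPM in sham ECs and 56.4 to 83.5 CPM at UUO-7, the same direction as 3p and without overlap. Their medians were 108 CPM in sham, 179 CPM at UUO-2 and 184 CPM in R-UUO, the opposite direction to 3p at UUO-2 and in R-UUO. The part of RNA from these other cells in the EC result was not tested.

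In PT cells, where the miRNA was most abundant, neither arm was called in any comparison. For 3p, sham PT cells held 14672, 12542, 15124 and 14509 CPM. UUO-2 PT cells held 12808, 13929, 13822 and 13345 CPM, and UUO-7 PT cells 12026, 10964, 13020 and 11889 CPM. R-UUO PT cells held 9523, 13974, 13913 and 9442 CPM, the widest spread of the 4 groups. All 3 groups overlapped with sham.

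The 3p log2 change in PT cells was -0.08 ± 0.144 at UUO-2 (edgeR adjusted p = 0.731), -0.25 ± 0.144 at UUO-7 (edgeR adjusted p = 0.162) and -0.28 ± 0.144 in R-UUO against sham (edgeR adjusted p = 0.121). R-UUO against UUO-7 gave -0.03 ± 0.144 (edgeR adjusted p = 0.966). The loci called in these comparisons were 19.1%, 43%, 38.8% and 1.52% of 330, in that order. Without the library of R-UUO mouse 1, R-UUO against sham gave -0.17 (edgeR adjusted p = 0.32) and R-UUO against UUO-7 turned to 0.07 (edgeR adjusted p = 0.765). The PT markers of the same cells summed to 152880 to 180194 CPM in sham and 28234 to 66182 CPM at UUO-7. PDGFR-β+ markers summed to 26.9 to 44.2 CPM in sham PT libraries and 100 to 113 CPM at UUO-7. Muscle miRNAs were at 2.56 to 16.1 and 17.6 to 28.2 CPM, while EC, Mac, lymphocyte and red blood cell markers overlapped between these groups. The part of RNA from these other cells in the PT results was not tested. For 5p, sham PT cells held 24.8, 19.2, 12.6 and 28.0 CPM and UUO-7 PT cells 13.7, 25.7, 18.4 and 13.8 CPM. Its 4 comparisons gave changes of -0.37 to 0.05, with edgeR adjusted p of 0.443 to 0.935.

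In PDGFR-β+ cells, miR-378a-3p was lower in R-UUO than in sham, and the obstructed libraries lay below sham as well. Sham cells held 4221, 4299, 4244 and 4299 CPM, a narrow range. UUO-2 cells held 3583, 3238, 3437 and 3362 CPM, and the 3 UUO-7 libraries 3391, 2830 and 3334 CPM. R-UUO cells held 1988, 2829, 3095 and 2900 CPM. Sham lay above each of the other groups with no overlap.

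With TMM, 1 of the 4 comparisons was called for 3p in these cells, R-UUO against sham, at -0.66 ± 0.123 (edgeR adjusted p = 0.00049), a 1.58-fold decrease, where 41.7% of 477 loci were called. Without R-UUO mouse 1 it was -0.54 (edgeR adjusted p = 0.000361) and by library size -0.38 (edgeR adjusted p = 0.0298), both under the fold threshold. The UUO-7 change was -0.42 ± 0.133 (edgeR adjusted p = 0.0145), a 1.34-fold decrease that did not pass the fold threshold, where 48.2% of loci were called. That direction rested on the scaling, since the change was 0.094 by library size (edgeR adjusted p = 0.579) and -0.66 with DESeq2's size factors, where it was called (edgeR adjusted p = 0.000518). The median change of all loci was 0.50 at UUO-7 and 0.40 in R-UUO, which put 3p 0.92 and 1.06 below it. UUO-2 gave -0.33 ± 0.122 (edgeR adjusted p = 0.121, 6.29% of loci called) and R-UUO against UUO-7 -0.24 ± 0.132 (edgeR adjusted p = 0.358, 3.98% called).

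Other markers moved in these libraries as well, and their part in the result was not tested. PT markers summed to 1368 to 2990 CPM in sham PDGFR-β+ cells and 739 to 1335 CPM in R-UUO, and EC markers to 1407 to 1757 and 412 to 560 CPM, both in the direction of 3p and without overlap. Red blood cell markers were at 27.8 to 100.1 and 84.6 to 146 CPM, and Mac markers at 34.8 to 132 and 107.5 to 162 CPM. The PDGFR-β+ markers themselves summed to 1129 to 1568 CPM in sham and 3603 to 4794 CPM in R-UUO, a sum that does not show the course of each member.

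The 5p arm varied most among sham PDGFR-β+ libraries, at 11.9, 9.88, 1.78 and 3.85 CPM from 85, 41, 5 and 11 counts. At UUO-7 it held 4.13, 2.86 and 2.32 CPM, within the sham range. The UUO-7 change was -1.15 ± 0.546 (edgeR adjusted p = 0.0928). Without sham library 3, the lowest of its group, it was -1.47 and called (edgeR adjusted p = 0.0134). With all libraries it was also called with the DESeq2 test (-1.40, DESeq2 adjusted p = 0.0247) and with DESeq2's size factors (-1.38, edgeR adjusted p = 0.0393). Its other 3 comparisons had edgeR adjusted p of 0.417 to 0.559, so 0 of 4 were called with edgeR and TMM.

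**Figure D3:**
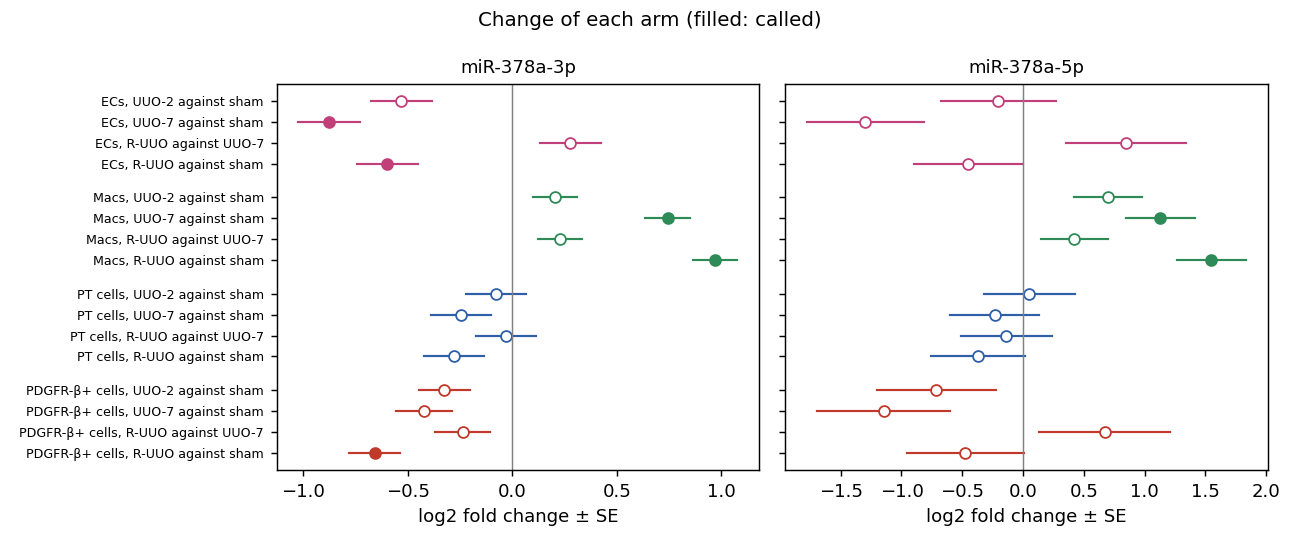
Log2 fold change of each arm, with SE, in 4 comparisons within each cell type. Filled points are called (edgeR adjusted p under 0.05 and fold above 1.5). Called increases lie in Macs, for both arms, and called decreases of 3p lie in ECs and in PDGFR-β+ cells.

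Whether the UUO-7 change differed between cell types was tested directly, as the change in 1 cell type minus the mean of the changes in the other 3, over all 63 libraries. For 3p, the change in Macs exceeded that of the others by 1.10 ± 0.169 on the log2 scale (edgeR adjusted p = 9.79e-07), in a contrast where 21.5% of 671 loci passed. For ECs the difference was -1.002 ± 0.168 (edgeR adjusted p = 1.52e-05), where 11.9% passed. The median difference of all loci was -0.12 for Macs and -0.37 for ECs. For PT cells it was 0.11 ± 0.168 (edgeR adjusted p = 0.771, 25% of loci passed), and for PDGFR-β+ cells -0.20 ± 0.177 (edgeR adjusted p = 0.544, 23.7% passed). For 5p, the Mac change exceeded the others by 1.84 ± 0.468 (edgeR adjusted p = 0.00215), and the differences for ECs, PT cells and PDGFR-β+ cells did not pass (edgeR adjusted p = 0.0744, 0.673 and 0.213). The Mac differences of both arms and the EC difference of 3p passed under all 13 alternatives run, 8 of which left out 1 mouse.

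The 3p arm was by far the more abundant in every cell type. Over all 63 libraries there were 896803 counts of 3p and 1615 of 5p, or 555 counts of 3p for each count of 5p. The 5p arm had 2 to 101 counts per library, so its values carry large counting error. In sham it stood at 10.8 to 23.4 CPM in PT cells (TMM over 63 libraries), 2.36 to 16.3 in PDGFR-β+ cells, 2.24 to 6.57 in ECs and 2.02 to 6.18 in Macs. PT cells were highest on average, but the PT and PDGFR-β+ ranges overlapped, as did those of ECs and Macs. Sham PT cells were 1.77 ± 0.315 above the mean of the other 3 cell types on the log2 scale. Over the 16 group means, the log2 levels of the 2 arms had a Pearson r of 0.94 and a Spearman rho of 0.90, a description of groups that share libraries and scaling.

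**Figure D4:**
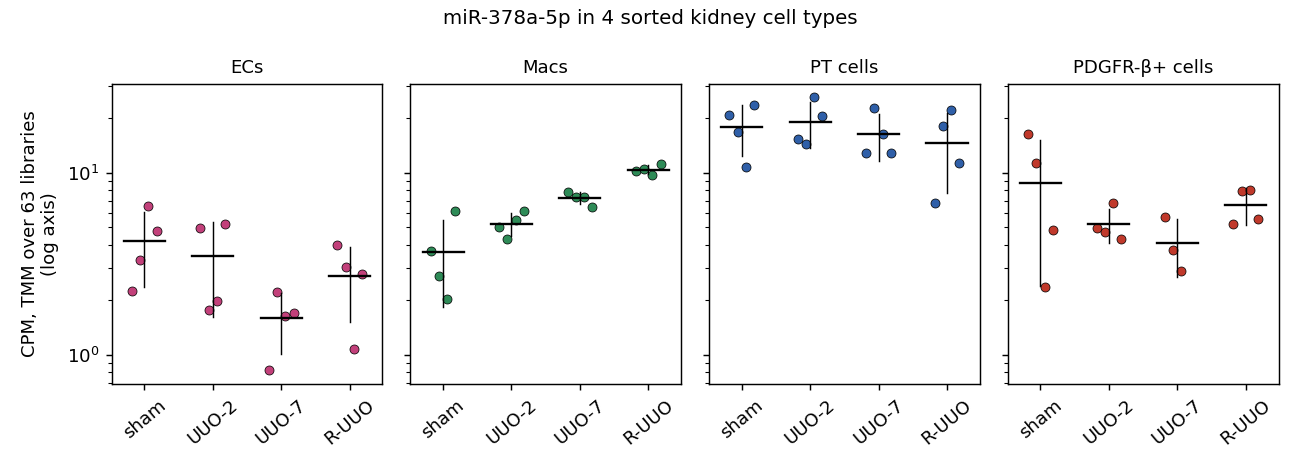
miR-378a-5p by library in each sorted cell type, on a log axis of CPM scaled by TMM over 63 libraries. Points are libraries, horizontal lines are means and vertical lines are SD (n = 4, or 3 for UUO-7 PDGFR-β+ cells). Mac values climb from 2.02 to 6.18 CPM in sham to 9.76 to 11.2 CPM in R-UUO, and the widest spread is in sham PDGFR-β+ cells.

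The ratio of the arms does not depend on scaling between libraries. The log2 ratio of 3p to 5p (0.5 added to each count) averaged 8.86 ± 0.433 (SD, n = 16) in Macs, 9.01 ± 0.734 (n = 16) in ECs, 9.41 ± 0.418 (n = 16) in PT cells and 9.53 ± 0.689 (n = 15) in PDGFR-β+ cells. The mean was lowest, with relatively the most 5p, in Macs, but ECs and Macs were not told apart (adjusted p = 0.568, exact test) and their order turned with 5 added to each count. Within mice, the Mac ratio was 0.55 ± 0.439 (SD) below that of PT cells, lower in 14 of 16 mice (exact sign-flip permutation test, two-sided, p = 0.000305, adjusted p = 0.00183 over 6 pairs). It was 0.66 ± 0.696 below that of PDGFR-β+ cells, lower in 13 of 15 mice (exact sign-flip test, p = 0.00391, adjusted p = 0.0117). The other 4 pairs did not pass (adjusted p = 0.164 to 0.658, exact tests), but ECs against PT cells and against PDGFR-β+ cells passed when 5 was added to each count in place of 0.5 (exact adjusted p = 0.00311 and 0.00824). Adding 5 lowers the ratio most where 5p counts are low, as in ECs, so these passes rest on that setting. All these tests pooled the 4 conditions, and the Mac mean lay nearest those of PT and PDGFR-β+ cells in sham. Sham means were 9.31 (Macs), 9.41 (PT cells), 9.59 (PDGFR-β+ cells) and 9.06 (ECs, the lowest). Macs stood at 8.71, 8.81 and 8.61 for UUO-2, UUO-7 and R-UUO, against 9.29, 9.41 and 9.51 for PT cells. For PDGFR-β+ cells these means were 9.63, 9.97 and 9.04. Whether the differences between cell types varied with condition was not tested.

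Between conditions, the design left little room to show a change of the ratio. Of 16 comparisons, 0 passed an exact two-sided permutation test after adjustment (lowest adjusted p = 0.457). The smallest single p the design allows is 0.0286, which adjusts to 0.457 where 1 of the 16 comparisons reaches it, so 0 passing says nothing about stability. R-UUO against UUO-7 in PDGFR-β+ cells reached it (exact permutation test) with a difference of -0.93. The mean Mac ratio was 9.31 ± 0.665 (SD, n = 4) for sham and 8.71 ± 0.264 for UUO-2. It was 8.81 ± 0.098 for UUO-7 and 8.61 ± 0.173 for R-UUO. Sham Macs spanned 8.51 to 10.1, a range that overlapped with each of the others.

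**Figure D5:**
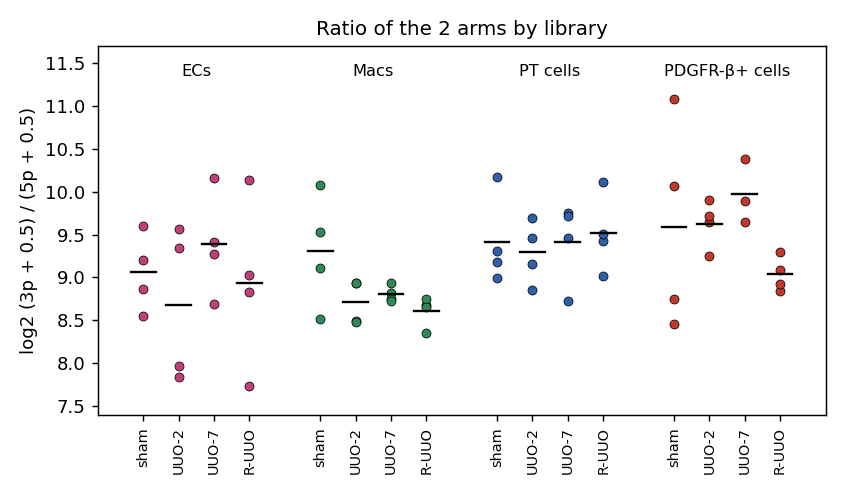
Log2 ratio of 3p to 5p counts, 0.5 added to each, by library (points) with group means (lines). Libraries span 7.73 to 11.1, and the 12 obstructed or reversed Mac libraries lie in a narrow band at 8.35 to 8.94.

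Other members of the family were barely detected. The 3 other miR-378 loci in the table had 916 counts together over all 63 libraries. miR-378d (GRCm38 chr10:126710355-126710376) had at most 47 counts in a library, miR-378c (chr14:46954905-46954925) at most 13 and miR-378b (chr11:88352839-88352858) at most 8. miR-378a-3p made up 99.4% to 99.9% of the family's counts in each library. Their mature RNAs are near copies of miR-378a-3p, so how the counting placed shared reads could move these low counts, and how it did so is not given in the sources used here. Only miR-378d passed the filter on low counts, in Macs and PDGFR-β+ cells, and 1 of its 8 comparisons was called. In Macs it was higher in R-UUO than at UUO-7, by 1.46 ± 0.470 (edgeR adjusted p = 0.0302), a call lost without R-UUO library 2 or 4 or UUO-7 library 4 or 5. It was also lost by library size alone, without the filter, with only the 2 groups fitted, and without R-UUO library 1 when the loci were kept (highest edgeR adjusted p over all these settings 0.0959). Its UUO-7 change against sham was -1.05 ± 0.470 (edgeR adjusted p = 0.0719), a value of the opposite sign to miR-378a-3p.

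A list of 17 other miRNAs known for roles in lipid, sugar or muscle metabolism, also drawn up with earlier results known, was followed at UUO-7. The share of its loci called was near that of all loci in each cell type, so the counts are no result about metabolic miRNAs. In Macs, 1 of 13 loci tested rose and 5 fell, 6 called where 43.1% of all loci were, with a median log2 change of -0.69 against 0.22 over all loci. In PDGFR-β+ cells, 1 of 14 rose and 6 fell, 7 called where 48.2% of all loci were, with a median of -0.49 against 0.50. In PT cells, 4 of 11 rose and 1 fell, 5 called where 43% of all loci were, with a median of 0.11 against 0.00. In ECs, 0 of 14 rose and 2 fell, where 11.5% of all loci were called, with a median of -0.12 against -0.05, and 1 of the 2 calls, that of miR-107-3p, was lost with any single library left out. By library size alone, 3 of the listed loci in PDGFR-β+ cells were called in place of 7.

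Among the listed miRNAs, the largest fall in Macs was of miR-33-5p, a regulator of cholesterol efflux, at -2.33 ± 0.565 (edgeR adjusted p = 0.00246). miR-27a-3p, known to act on lipid metabolism and fat cell formation, changed by -1.13 ± 0.198 in Macs (edgeR adjusted p = 0.000143) and by 1.77 ± 0.396 in PT cells (edgeR adjusted p = 0.00198). In PDGFR-β+ cells it changed by -0.93 (edgeR adjusted p = 0.00104), a call lost by library size alone. miR-26a-5p, counted at 2 loci with the same mature sequence, changed by -0.84 ± 0.122 and -0.83 ± 0.127 in Macs (edgeR adjusted p = 2.69e-05 and 3.79e-05). miR-27b-3p changed by 0.82 ± 0.239 in PT cells (edgeR adjusted p = 0.0107) and by -1.24 ± 0.169 in PDGFR-β+ cells (edgeR adjusted p = 2.42e-05). In Macs it changed by 0.73 ± 0.156 (edgeR adjusted p = 0.000782), and this value was picked after it was seen, because it is opposite to that of miR-27a-3p. That last call was lost without UUO-7 library 3 or 4 or sham library 2 or 3 (lowest change 0.41), and held in 8 of 8 fits with the loci of the full fit kept.

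The muscle miRNA miR-133a-3p fell in ECs (-1.73 ± 0.374, edgeR adjusted p = 0.00676) and in PDGFR-β+ cells (-1.74 ± 0.692, edgeR adjusted p = 0.0459) and rose in PT cells (1.55 ± 0.485, edgeR adjusted p = 0.016). miR-143-3p, abundant in smooth muscle, fell in PDGFR-β+ cells (-1.48 ± 0.235, edgeR adjusted p = 9.32e-05) and rose in PT cells (1.99 ± 0.538, edgeR adjusted p = 0.00725). The DESeq2 test gave 1.98 in PT cells but no adjusted p, so the call was not made there. PDGFR-β+ markers also rose in the PT libraries, and their part in this rise was not tested. miR-193b-3p rose in PDGFR-β+ cells by 2.09 ± 0.785 (edgeR adjusted p = 0.0354). In PDGFR-β+ cells the call of miR-133a-3p was lost without any of the 3 UUO-7 libraries or sham library 1, where its change was -0.48. It was also lost by library size alone, with only the 2 groups fitted and with the replicate number as a block. That of miR-193b-3p was lost without any of the 3 UUO-7 libraries or sham library 3 or 4. DESeq2's size factors and fits of only the 2 groups lost it too. In PT cells the call of miR-133a-3p was lost without UUO-7 library 4 or sham library 4. That of miR-27b-3p was lost without UUO-7 library 4 and by library size alone (0.44, edgeR adjusted p = 0.064). miR-107-3p, which bears on insulin signalling, changed in ECs by -0.59 ± 0.182 (edgeR adjusted p = 0.041), close to the fold threshold. This EC call was lost in 5 of 6 other settings with all libraries, among them the DESeq2 test, and kept by library size alone. miR-107-3p was also called in PDGFR-β+ cells (-0.68, edgeR adjusted p = 0.00929) and in PT cells (-0.67, edgeR adjusted p = 0.0159). Those calls held with any single library left out. The PDGFR-β+ call was lost by library size alone, and the PT call without the filter.

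Mature sequences of 5 of these miRNAs are shown because 2 pairs share a seed, 1 of which moved apart in Macs. They are RefSeq sequences on GRCm38.p6, written 5′ to 3′ with the seed (bases 2 to 8) in capitals.
miR-27a-3p (chr8:84208727-84208747, plus strand): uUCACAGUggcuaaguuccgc
miR-27b-3p (chr13:63300760-63300780, plus strand): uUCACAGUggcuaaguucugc
miR-26a-5p (chr9:119031811-119031832 and chr10:126995543-126995564, plus strand): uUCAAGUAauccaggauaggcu
miR-26b-5p (chr1:74394324-74394344, plus strand): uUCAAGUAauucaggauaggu
miR-33-5p (chr15:82198127-82198147, plus strand): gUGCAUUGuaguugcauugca
miR-27a-3p and miR-27b-3p share the seed UCACAGU and moved in opposite directions in Macs, while both rose in PT cells and both fell in PDGFR-β+ cells. miR-26a-5p and miR-26b-5p share the seed UCAAGUA and both fell in Macs, miR-26b-5p by 0.73 on the log2 scale. The near-identical sequences of each pair mean that the counting could have split their reads.

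The loci whose levels ran most nearly parallel to each arm were found by Pearson r of mean log2 CPM over the 16 groups, among 667 loci. For 3p they were miR-7653-5p (r = 0.89), miR-187-3p (r = 0.89) and miR-200a-5p (r = 0.88). All 3 were highest in PT cells, where their mean levels were 2.55, 154 and 32.6 CPM (TMM over 63 libraries), against 0.122, 11.9 and 2.54 CPM in Macs. For 5p they were miR-6240 (r = 0.87), miR-363-3p (r = 0.86) and miR-1199-3p (r = 0.84), again highest in PT cells, at 1623, 6.35 and 3.20 CPM. Their Spearman rho was 0.79 to 0.89 over the 6 pairs. By library size alone, these 6 loci ranked 42nd, 4th and 15th for 3p and 1st, 3rd and 33rd for 5p, so the choice rests on the scaling. miR-7653-5p averaged 0.077 CPM in ECs and 0.122 CPM in Macs. miR-1199-3p averaged 0.118 CPM in ECs, 0.314 CPM in Macs and 0.237 CPM in PDGFR-β+ cells. These are under what 3 counts allow in any library of those cells, at least 0.277, 0.434 and 0.342 CPM in that order of cell types. In PT libraries 3 counts correspond to 0.589 to 4.87 CPM, so the PT means of miR-7653-5p (2.55) and miR-1199-3p (3.20) were near that limit too. The correlations describe 16 points that share libraries, depth and scaling.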

How the data were processed

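Small RNA libraries of 4 FACS-sorted kidney cell types were analysed. The authors deposited raw counts per mature miRNA locus, with no normalization, after trimming (Trim Galore 0.4.1, cutadapt 1.1) and alignment with a Bowtie wrapper on GRCm38 with miRBase 22 loci. The column of totals over libraries was not used. Counts were tested with edgeR 4.0.16 (TMM, filterByExpr, quasi-likelihood test, Benjamini-Hochberg) within each cell type, in R 4.3.3. Alternatives included DESeq2 1.42.0, other scalings, no filter, a block and leaving out libraries. The fits and exact tests were tested on simulated data.

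The members and the lists were chosen with earlier results of these data known. Named loci were the 2 arms, other miR-378 loci, the 3 loci most correlated with each arm, and listed metabolic miRNAs called at UUO-7, at most 4 per cell type. Further calls of miR-27a-3p and miR-107-3p are given beside these. The mature sequences of miR-378a are not reported here. By the sample titles, libraries with the same condition and mouse number in different cell types were taken as coming from 1 mouse. Their deviations from group means correlated at a median of 0.049 over 93 such pairs (-0.295 to 0.267), too weak to show this. The paired tests of the arm ratio rest on these titles. Replicate libraries differed beyond sampling noise (chi-square per degree of freedom of at least 10.3). The 3-count floor covers counting error only. SEs and SDs include the spread between libraries.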

Additional observations from a re-analysis of the deposited data

Results flagged for a closer look

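The change of miR-378a at UUO-7 differed between cell types by a direct test. For miR-378a-3p, the Mac change was 1.10 above the mean of the other 3 cell types on the log2 scale (edgeR adjusted p = 9.79e-07) and the EC difference was -1.002 (edgeR adjusted p = 1.52e-05). For miR-378a-5p, the Mac difference was 1.84 (edgeR adjusted p = 0.00215), from 9 to 45 counts per Mac library. In sham and UUO-7 Macs miR-150-5p, listed for lymphocytes but higher in ECs, stood at 147 to 249 and 837 to 1346 CPM by library size. The summed PDGFR-β+ markers were at 39.3 to 66.9 and 167 to 212 CPM. PT markers in ECs were at 1795 to 2543 CPM in sham and 1152 to 1790 CPM at UUO-7. PDGFR-β+ markers in ECs were at 101 to 118 CPM in sham and 56.4 to 83.5 CPM at UUO-7. The part of these in the differences was not tested. No library stood apart from its group by Dixon's test in 45 groups of 4 values of the arms and their ratio, of which chance flags about 1 in 20.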

How the results depend on the processing

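With libraries scaled by size alone, the sham levels of miR-378a-3p relative to the other cell types were 2.69 in PT cells, -0.19 in PDGFR-β+ cells, -0.47 in Macs and -2.02 in ECs (log2), and those of miR-378a-5p were 2.46, -0.27, -0.47 and -1.71. For 3p, DESeq2's size factors gave 2.27 in PT cells, 0.34 in PDGFR-β+ cells and -1.35 in Macs. Within PDGFR-β+ cells the UUO-7 change of 3p was 0.094 by library size, -0.66 with DESeq2's size factors and -0.66 with the DESeq2 test, and that of 5p was -1.38 and -1.40 with the latter pair, all 4 DESeq2 values being called. R-UUO against sham for 3p in PDGFR-β+ cells was -0.38 by library size, under the fold threshold. Library size also gave -0.0068 for 3p in R-UUO against UUO-7 Macs, 0.85 for 5p in UUO-2 Macs (called) and -0.12 for 5p in UUO-2 PT cells. The difference of the UUO-7 change between PT cells and the others was -0.31 by DESeq2, -0.31 by its size factors and -0.57 by library size for 3p, and -0.035, -0.055 and -0.31 for 5p. For PDGFR-β+ cells and 3p it was 0.35 by library size. Without the filter, 3p in R-UUO ECs (-0.50) and 5p in UUO-7 Macs (1.01) were no longer called. The causes of these shifts were not tested. The called changes of 3p in UUO-7 and R-UUO Macs and UUO-7 ECs, and of 5p in R-UUO Macs, kept direction and call under DESeq2, both scalings, no filter, the block and fits of 2 groups only.

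Replicate numbers across conditions named different mice, and their deviations correlated at a median of -0.017 over 74 pairs, 8 above 0.1. With the replicate number as a block, 3p in R-UUO ECs was -0.58, under the fold threshold, and no other call of either arm changed. With the mouse as a block, the direct tests between cell types kept their calls. With 5 added to the counts, the arm ratio difference was -0.16 for ECs minus Macs, -0.67 for ECs minus PDGFR-β+ cells, -0.66 for ECs minus PT cells and 0.0029 for PT minus PDGFR-β+ cells. The same setting gave -0.10 for R-UUO against UUO-7 in PT cells, and for UUO-7 against sham -0.14 in ECs and 0.15 in PT cells.

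Leaving out 1 library at a time, with the loci filtered again or kept as they were (the second chosen after seeing the data), gave these ranges where a call or direction changed. For 3p they were 0.51 to 0.80 in UUO-7 Macs, -0.70 to -0.36 in R-UUO ECs, -0.64 to -0.42 in UUO-2 ECs, -0.80 to -0.54 in R-UUO PDGFR-β+ cells, all against sham, and -0.17 to 0.10 in R-UUO against UUO-7 PT cells. For 5p against sham they were 0.33 to 1.03 in UUO-2 Macs, -1.47 to -0.74 in UUO-7 PDGFR-β+ cells, -0.50 to 0.11 in UUO-2 ECs and -0.19 to 0.23 in UUO-2 PT cells, and -0.39 to 0.12 in R-UUO against UUO-7 PT cells. The sham level of 5p in PDGFR-β+ cells was -0.077 to 0.85 relative to the others, and the direct tests of 5p gave -1.69 to -0.81 for ECs and -1.46 to -0.37 for PDGFR-β+ cells. Arm ratios against sham ran from -0.53 to 0.28 in R-UUO ECs, -0.10 to 0.36 in R-UUO PT cells, -0.34 to 0.54 in UUO-2 PDGFR-β+ cells, -0.26 to 0.13 in UUO-2 PT cells and -0.14 to 0.25 in UUO-7 PT cells, and from -0.13 to 0.27 in R-UUO against UUO-7 PT cells. Of the listed metabolic miRNAs called at UUO-7, 0 changed direction in any setting run.

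Counts of loci called moved by over 1.5 times for R-UUO against UUO-7, from 5 to between 2 and 39 in ECs, from 5 to between 0 and 24 in PT cells and from 19 to between 7 and 55 in PDGFR-β+ cells. They also moved for UUO-2 against sham, from 8 to between 5 and 28 in ECs, from 30 to 49 in PDGFR-β+ cells without the filter, and from 63 to 96 in PT cells with only the 2 groups fitted. With 1 library left out, R-UUO against UUO-7 ran from 1 to 16 in ECs, 0 to 19 in PT cells and 3 (without UUO-7 library 5) to 75 (without R-UUO mouse 1) in PDGFR-β+ cells. UUO-2 against sham then ran from 19 to 42 in PDGFR-β+ cells, 38 to 65 in PT cells and 4 to 10 in ECs, and UUO-7 against sham in ECs from 35 to 60, against 54 with all libraries. The share of calls that were higher at UUO-7 moved from 70.4% to 86.3% in PDGFR-β+ cells, from 53.7% to 36.7% in ECs and from 59.2% to 43.6% in PT cells by library size. Low counts of 5p and of the other miR-378 loci limit what could be detected in them.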
